A study of Mus musculus with 2 samples.

Results

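A set of 40 genes of microglia and brain macrophages was followed in the forebrains of newborn mice. The members were chosen by name as genes by which these cells are known, and were found by matching the Ensembl identifiers of the deposited gene tables, without version, to the symbols of GENCODE M21 on GRCm38 (the build also called mm10). All 40 were found among 43346 genes. Total RNA was sequenced from 2 animals of strain B6NCrl at postnatal day 0, with 1 forebrain and 1 library each: pup 1 (replicate 1) and pup 3 (replicate 2). Both belong to 1 group, with no treatment, allele or second tissue in the labels. Each library started from 10 ng of RNA longer than 200 nt. The labels speak of single forebrains of separate pups but give both the same donor identifier, so the spread between the libraries may be partly technical.

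Microglia are the resident macrophages of the brain tissue itself. They derive from yolk sac progenitors, depend on signalling through the receptor CSF1R, clear dying cells and take part in the pruning of synapses. Border macrophages live in the meninges, the choroid plexus and along vessels, share most pan-macrophage genes with microglia and are set apart by genes such as Mrc1, Pf4 and Lyve1. Both cell types are a minority among the neurons, neural progenitors and glia of a newborn forebrain. The tissue was whole, so its RNA holds these cells mixed with all others, and fewer cells of a type and less RNA per cell cannot be told apart.

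The deposited expected counts, estimated reads per gene, summed to 40066386 in pup 1 and 40431595 in pup 3. Members held 52770 of them in pup 1 and 54148 in pup 3. The levels below are deposited TPM (transcripts of a gene relative to all others in the library), which is scaled by transcript length to allow comparison between genes. TPM ratios between the pups still varied with length over all genes (Spearman's correlation 0.45). Ratios of genes of unlike length therefore depend in part on the library. Forebrain neuron markers were abundant, with Tubb3, a neuronal tubulin, at 1836 TPM in pup 1 and 1700 TPM in pup 3. No contrast between conditions exists, and the smallest two-sided p that an exact sign-flip over 2 animals allows is 0.5, so no test is reported.

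Of the 40 members, 35 reached 1 TPM in both pups, where 60.7% of all 21474 protein-coding genes did so. The median member had 7.02 TPM (mean of both pups), with a median of 7.55 TPM in pup 1 and 6.10 TPM in pup 3. This lies at percentile 28.5 of the 13030 protein-coding genes detected in both pups, whose own median was 17.0 TPM. In all, 16 members averaged 10 TPM or more and 2, the lysosomal proteases Ctsd and Ctsb, 100 TPM or more. Members summed to 1013 TPM in pup 1 and 954.04 TPM in pup 3, which is 0.101% and 0.0954% of all TPM in pup 1 and pup 3. Without Ctsd and Ctsb, which most cell types make, the sums were 556.4 TPM in pup 1 and 537.9 TPM in pup 3. The 5 members under 1 TPM in at least 1 pup were Cd163, C3, Itgam, Ptprc and Tgfb1.

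**Figure D1:**
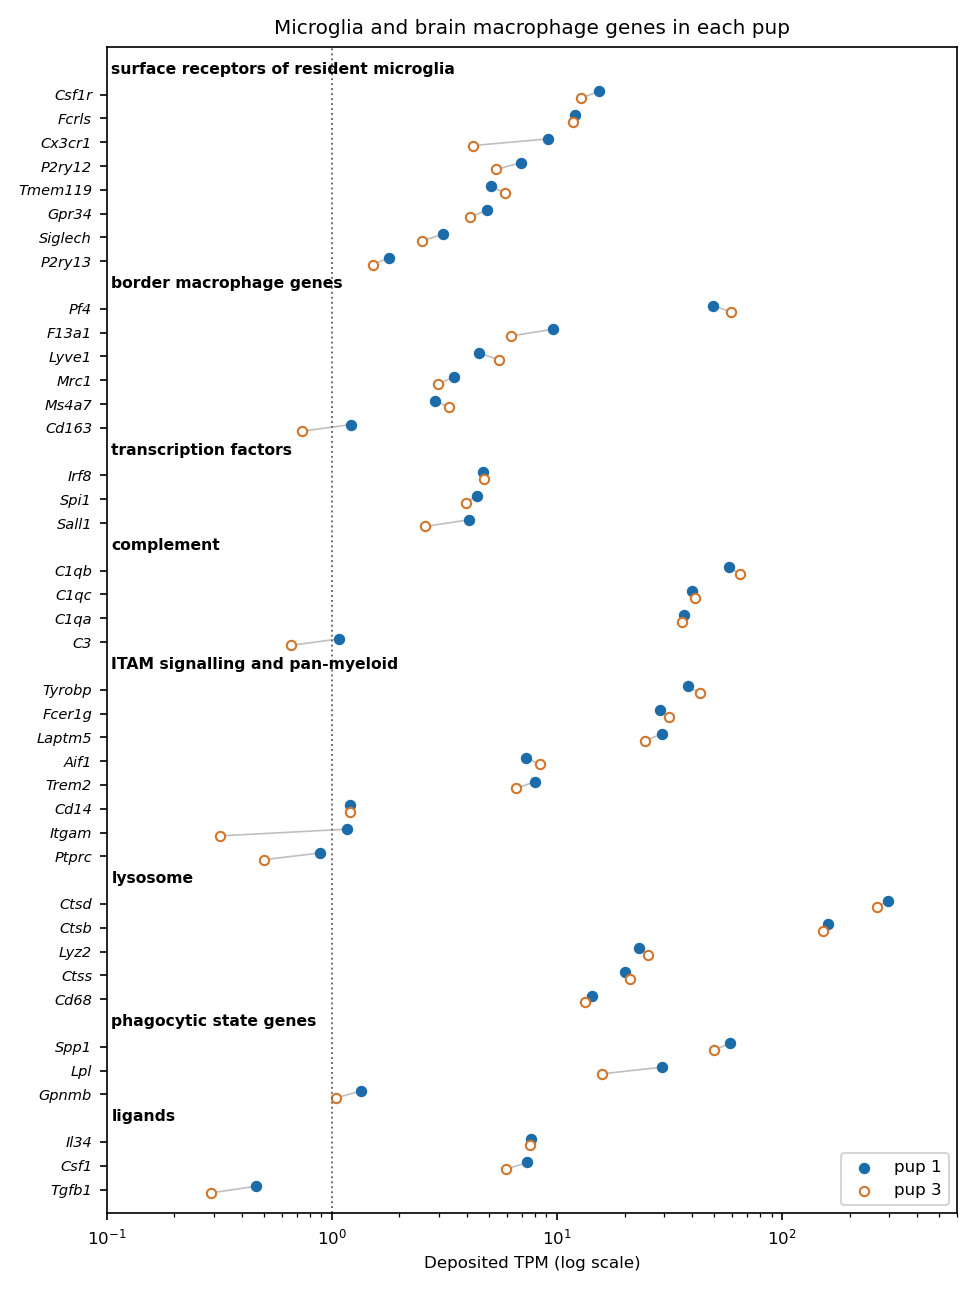
Deposited TPM (log axis) of each of the 40 members in pup 1 (filled circles) and pup 3 (open circles), grouped by role, with a dotted line at 1 TPM. Ctsd and Ctsb lie above 100 TPM in both pups, C1qb, Pf4 and Spp1 between 49.6 and 65.0 TPM, and the 8 microglial surface receptors between 1.52 and 15.4 TPM.

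The surface receptors by which resident microglia are recognised were all present at low to moderate levels. All 8 reached 1 TPM in both pups, with a median of 5.83 TPM. Csf1r, the receptor tyrosine kinase on which microglia depend for survival, led with 15.4 TPM in pup 1 and 12.9 TPM in pup 3. Fcrls, an Fc receptor-like scavenger receptor of mouse microglia, was almost level with it at 12.02 TPM in pup 1 and 11.8 TPM in pup 3. These 2 were the only receptors of the list above 10 TPM in both pups. Cx3cr1, the receptor for the neuronal chemokine fractalkine, had 9.16 TPM in pup 1 but 4.25 TPM in pup 3. P2ry12, the purinergic receptor that draws microglial processes to released nucleotides, had 6.94 TPM in pup 1 and 5.39 TPM in pup 3. Tmem119, a membrane protein used as a marker of resident microglia, had 5.10 TPM in pup 1 and 5.90 TPM in pup 3. The order of Cx3cr1, P2ry12 and Tmem119 thus differed between the pups, and their levels cannot be ranked beyond the spread. Gpr34, a lysophosphatidylserine receptor, followed at 4.90 TPM in pup 1 and 4.13 TPM in pup 3. Siglech, a sialic acid-binding lectin, had 3.13 TPM in pup 1 and 2.53 TPM in pup 3. The lowest was P2ry13, a receptor for ADP, at 1.79 TPM in pup 1 and 1.52 TPM in pup 3. P2ry12 and P2ry13 neighbour each other on chromosome 3 (chr3:59216272-59262871 and chr3:59207892-59210882 on GRCm38, minus strand), and P2ry12 was 3.72 times P2ry13 in pup 1 and 3.39 times in pup 3. That ratio was larger than the spread between the pups, taken here as a mean log2 ratio over 3 SD with 1 sign. Such an SD rests on 2 pups, so it is itself uncertain and can fall below counting error.

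Several of these loci overlap other genes, and the labels do not say whether counting used strand. P2ry12 and P2ry13 lie within Med12l on the opposite strand, which had 1.80 TPM in pup 1 and 0.83 TPM in pup 3, but Med12l shares only 9 nt of exon with P2ry12 and none with P2ry13. Gpr34 lies inside Cask without exon overlap, and Cask had 50.2 TPM in pup 1 and 31.1 TPM in pup 3. Csf1r shares 15.1% of its exonic bases with Hmgxb3 on the opposite strand, a gene with 9.74 TPM in pup 1 and 6.75 TPM in pup 3. Reads from those shared bases cannot be assigned without strand. Across the 40 members, 16 overlap some annotated gene and 9 do so within exons, 4 of them with a gene that the tables measure. Ctsb is the other large case, sharing 12.8% of its exonic bases with Fdft1 on the opposite strand at 150.2 TPM in pup 1 and 152.2 TPM in pup 3. Il34 overlaps a pair of antisense genes, Gm15894 and Gm15895, which had at most 0.32 TPM in either pup. Itgam shares 68.7% of its exonic bases, and Ctsd 34.4%, with a gene model on the same strand that GENCODE M21 adds (Gm49368 and Gm49369) and that was not analysed here.

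The ligands that act on these receptors were measured in the same RNA. Il34, a CSF1R ligand made largely by neurons, had 7.70 TPM in pup 1 and 7.59 TPM in pup 3. Csf1, the other CSF1R ligand, had 7.40 TPM in pup 1 and 5.96 TPM in pup 3. Their ratio, Il34 over Csf1, was 1.04 in pup 1 and 1.27 in pup 3 and did not exceed the spread between the pups. On library-scaled counts, which are not divided by length, it turned to -1.04 on the log2 scale and exceeded 3 SD. The receptor stood above either ligand, with Csf1r at 2.07 times Csf1 in pup 1 and 2.14 times in pup 3, and at 1.99 times Il34 in pup 1 and 1.68 times in pup 3. Tgfb1, the cytokine needed to maintain the microglial programme, was listed at 0.46 TPM in pup 1 and 0.29 TPM in pup 3, from 24 expected counts in pup 1 and 17 in pup 3. By contrast Tgfb2, a related ligand outside the 40, had 31.0 TPM in pup 1 and 14.3 TPM in pup 3. Cx3cl1, which encodes fractalkine, reached 67.1 TPM in pup 1 and 50.5 TPM in pup 3, or 7.25 times its receptor Cx3cr1 in pup 1 and 11.6 times in pup 3. Within the list of 11 further genes of CSF1R, TGF-beta and fractalkine signalling, 9 were detected in both pups, and the median over all 11 was 6.36 TPM. Csf2rb, a cytokine receptor subunit, was lowest and not among those detected, at 0.47 TPM in pup 1 and 0.51 TPM in pup 3.

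Transcription factors of the myeloid lineage lay close together. Irf8, an interferon regulatory factor needed for microglial development, had 4.68 TPM in pup 1 and 4.77 TPM in pup 3. Spi1, which encodes PU.1, the ETS-family factor that specifies macrophages, had 4.42 TPM in pup 1 and 3.95 TPM in pup 3. Spi1 over Irf8 was 0.946 in pup 1 and 0.832 in pup 3, a difference within 3 SD of the pups that exceeded it on library-scaled counts, at -0.52 on the log2 scale. Sall1, the zinc finger factor that keeps microglial identity and is also expressed in neural progenitors, had 4.08 TPM in pup 1 and 2.61 TPM in pup 3. Of 11 further myeloid transcription factors, 9 were detected in both pups, and the median over all 11 was 3.54 TPM. Mef2a, a broadly expressed MADS-box factor, was highest at 37.9 TPM in pup 1 and 25.1 TPM in pup 3. Runx1, a haematopoietic factor, was lowest at 0.40 TPM in pup 1 and 0.55 TPM in pup 3.

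The C1q genes, whose protein opens the classical complement pathway and tags synapses for removal, were among the highest members. Its 3 chains are encoded side by side on chromosome 4, minus strand (C1qa at chr4:136895917-136898803, C1qb at chr4:136880129-136886187 and C1qc at chr4:136889804-136893065 on GRCm38). C1qb had 58.4 TPM in pup 1 and 65.0 TPM in pup 3. C1qc had 40.02 TPM in pup 1 and 40.95 TPM in pup 3. C1qa had 36.6 TPM in pup 1 and 36.1 TPM in pup 3. The B chain was thus the highest in both pups, at 1.60 times C1qa in pup 1 and 1.80 times in pup 3, beyond the spread between pups. Against C1qc it was 1.46 times as high in pup 1 and 1.59 times in pup 3. C3, the central complement protein that C1q activity leads to, was far lower, at 1.08 TPM in pup 1 and 0.66 TPM in pup 3. C1qa exceeded C3 31.1-fold in pup 1 and 47.7-fold in pup 3. Of the 1.08 TPM of C3 in pup 1, 0.73 TPM was given to a transcript of 554 nt with 8.27 expected counts, so the size of that fold is uncertain. The mean log2 ratio of C1qa over C3 was 5.27 on TPM and 4.18 on library-scaled counts, which are not divided by length. Of 12 further complement genes, 8 were detected in both pups, and the median over all 12 was 2.14 TPM. The regulators Cr1l, with 38.5 TPM in pup 1 and 35.8 TPM in pup 3, and Serping1, with 21.5 TPM in pup 1 and 19.2 TPM in pup 3, led that list. The protease gene C1ra, whose product sits in the C1 complex, had the lowest mean, with 0.55 TPM in pup 1 and 0.45 TPM in pup 3.

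Promoters of 29 of the 40 members were found in RefSeq (GRCm38.p6) and were searched over the 250 bases before each start, on both strands, for letters bound by PU.1. The long form GAGGAAGT was present in 3 of 29 member genes (10.3%), C1qc, Pf4 and Spp1, and in 2.79% of all 27025 genes. Its first 6 letters alone, GAGGAA, which every long match also contains, were present in 15 of 29 member genes (51.7%) and in 25.9% of all genes. The ETS-IRF composite element, of the kind bound by PU.1 together with IRF8 and searched as GGAA, any 2 letters and GAAA, were in 0 of 29 member genes and in 2.68% of all genes. A match describes the letters only, and a window without one says nothing about the factor. Below are the stretches before the RefSeq starts of the 3 genes with the long form and of C1qb, the member with the highest mean after Ctsd and Ctsb, 5′ to 3′ along the gene's own strand with matches in capitals. They are bases 120 to 1 before the start of C1qb (chr4:136886201-136886320, minus strand), bases 250 to 152 before that of C1qc (chr4:136893066-136893164, minus strand), bases 120 to 1 before that of Pf4 (chr5:90772315-90772434, plus strand) and bases 150 to 1 before that of Spp1 (chr5:104434961-104435110, plus strand).
C1qb: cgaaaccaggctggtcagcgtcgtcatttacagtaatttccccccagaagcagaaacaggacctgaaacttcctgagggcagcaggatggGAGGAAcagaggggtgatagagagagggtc
C1qc: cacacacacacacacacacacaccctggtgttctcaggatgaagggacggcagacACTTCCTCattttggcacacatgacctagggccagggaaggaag
Pf4: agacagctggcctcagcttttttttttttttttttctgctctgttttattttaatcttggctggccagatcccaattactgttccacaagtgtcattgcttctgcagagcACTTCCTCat
Spp1: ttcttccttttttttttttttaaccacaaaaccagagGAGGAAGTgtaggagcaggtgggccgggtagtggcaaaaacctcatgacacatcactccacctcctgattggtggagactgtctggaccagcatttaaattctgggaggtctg
The match reads GAGGAAGT in Spp1, and its reverse complement ACTTCCTC in C1qc and in Pf4, where its last letter lies 3 bases before the start. C1qb holds the short form.

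Genes of border macrophages were also present, and 1 of them exceeded every microglial receptor. Pf4, a platelet chemokine that border macrophages also make, had 49.6 TPM in pup 1 and 59.3 TPM in pup 3. F13a1, the A subunit of coagulation factor XIII, had 9.59 TPM in pup 1 and 6.24 TPM in pup 3. Lyve1, a hyaluronan receptor, had 4.52 TPM in pup 1 and 5.55 TPM in pup 3. Mrc1, the mannose receptor CD206, had 3.51 TPM in pup 1 and 2.98 TPM in pup 3. Pf4 stood well apart, at 13.8 times Mrc1 in pup 1 and 19.3 times in pup 3, beyond the spread between pups. Their mean transcript lengths were far apart, 586 nt for Pf4 and 5297 nt for Mrc1, so the size of this ratio depends on the length scaling. Ms4a7, a tetraspan membrane protein, had 2.88 TPM in pup 1 and 3.32 TPM in pup 3. Cd163, the haemoglobin scavenger receptor, had 1.22 TPM in pup 1 and 0.74 TPM in pup 3. Set against the microglial genes, F13a1 was above Cx3cr1, P2ry12 and Tmem119 in both pups, so the chosen pairs below do not rank the lists. In these pairs, P2ry12 was 1.95 times Mrc1 in pup 1 and 1.78 times in pup 3. Tmem119 was 1.74 times Ms4a7 in pup 1 and 1.75 times in pup 3, and both ratios exceeded the spread. For Tmem119 over Ms4a7 the SD was only 0.0055 on the log2 scale, while Ms4a7 had 71 expected counts in pup 1 and 91 in pup 3. Cx3cr1 was 2.57 times Mrc1 in pup 1 and 1.41 times in pup 3, which did not. On library-scaled counts Pf4 over Mrc1 no longer exceeded the spread and P2ry12 over Mrc1 turned to -0.42 on the log2 scale. Of 13 further border macrophage genes, 8 were detected in both pups, and the median over all 13 was 1.34 TPM. Dab2, an endocytic adaptor, was highest at 12.4 TPM in pup 1 and 12.01 TPM in pup 3. Clec12a, an inhibitory lectin and not among those detected, had the lowest mean, with 0.12 TPM in pup 1 and 0.18 TPM in pup 3. Stab1, a scavenger receptor shared with some endothelium, had 9.94 TPM in pup 1 and 6.65 TPM in pup 3.

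Pf4 is also a platelet gene and Lyve1 a lymphatic one, so markers of those cells were read beside them. Ppbp, which encodes the other major platelet chemokine, had 0.25 TPM in pup 1 and 0.18 TPM in pup 3. Gp9, a platelet glycoprotein, had 0.17 TPM in pup 1 and 0.25 TPM in pup 3. Of the 4 platelet markers 2 were detected. Itga2b, the platelet integrin, had 10.8 TPM in pup 1 and 7.27 TPM in pup 3. Gp1bb had 12.1 TPM in pup 1 and 12.5 TPM in pup 3, but 91.1% of its exonic bases overlap Sept5, a gene of 221 TPM in pup 1 and 212 TPM in pup 3. The 4 platelet markers summed to 23.3 TPM in pup 1 and 20.2 TPM in pup 3, and their part in the Pf4 level was not tested. For lymphatic endothelium, Flt4 had 0.96 TPM in pup 1 and 0.85 TPM in pup 3, and Ccl21a 0.42 TPM in pup 1 and 0.48 TPM in pup 3. Pdpn, which other cells of the brain also express, had 33.6 TPM in pup 1 and 32.6 TPM in pup 3. Prox1, which neural progenitors and granule neurons also express, had 13.9 TPM in pup 1 and 5.04 TPM in pup 3.

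Adaptors and pan-myeloid genes spanned a wide range. Tyrobp, the ITAM adaptor DAP12, had 38.1 TPM in pup 1 and 43.4 TPM in pup 3. Its partner Trem2, a lipid-sensing receptor that signals through DAP12, had 8.04 TPM in pup 1 and 6.62 TPM in pup 3. The adaptor thus exceeded this receptor 4.70-fold in pup 1 and 6.47-fold in pup 3. Fcer1g, the gamma chain of Fc receptors, had 28.8 TPM in pup 1 and 31.5 TPM in pup 3. Laptm5, a lysosomal membrane protein of haematopoietic cells, had 29.3 TPM in pup 1 and 24.7 TPM in pup 3. Aif1, which encodes the actin-bundling protein IBA1, had 7.31 TPM in pup 1 and 8.40 TPM in pup 3. The remaining genes of this group were near or under 1 TPM. Cd14, a lipopolysaccharide co-receptor, had 1.20 TPM in pup 1 and 1.21 TPM in pup 3. Ptprc, the phosphatase CD45, had 0.89 TPM in pup 1 and 0.50 TPM in pup 3. Itgam, which encodes CD11b, had 1.17 TPM in pup 1 and 0.32 TPM in pup 3, from 74 counts in pup 1 and 41 in pup 3. Of the 1.17 TPM in pup 1, 0.51 TPM was given to a transcript of 338 nt with 3.01 expected counts, so the TPM of Itgam differed more between pups than its counts did.

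The lysosomal genes held the 2 most abundant members. Ctsd, which encodes the aspartic protease cathepsin D, had 296 TPM in pup 1 and 263 TPM in pup 3. Ctsb, encoding the cysteine protease cathepsin B, had 160 TPM in pup 1 and 153 TPM in pup 3. Neither is restricted to macrophages. Ctss, encoding cathepsin S, which among brain cells is typical of microglia, had 20.0 TPM in pup 1 and 21.2 TPM in pup 3, so Ctsb exceeded it 7.95-fold in pup 1 and 7.18-fold in pup 3. Lyz2, the macrophage lysozyme, had 23.1 TPM in pup 1 and 25.5 TPM in pup 3. Its near-identical neighbour Lyz1 was given 0.14 TPM in pup 1 and 0.03 TPM in pup 3, and reads common to both genes were divided by the authors' quantification. Cd68, a lysosomal glycoprotein used as a marker of phagocytes, had 14.3 TPM in pup 1 and 13.4 TPM in pup 3. All 14 further lysosomal genes were detected in both pups, at a median of 57.1 TPM. Cst3, a secreted cathepsin inhibitor, had 983 TPM in pup 1 and 987 TPM in pup 3 and led them, followed by Lamp1, a lysosomal membrane glycoprotein, at 319 TPM in pup 1 and 292 TPM in pup 3. Ctso was lowest at 11.8 TPM in pup 1 and 9.78 TPM in pup 3.

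Genes of the phagocytic state seen in microglia of young white matter were unequal. Spp1, which encodes osteopontin and is made by several cell types, had 58.8 TPM in pup 1 and 49.9 TPM in pup 3. Lpl, the lipoprotein lipase that neurons also express, had 29.3 TPM in pup 1 and 15.8 TPM in pup 3. Gpnmb, a transmembrane glycoprotein of the same state, had 1.35 TPM in pup 1 and 1.05 TPM in pup 3. Spp1 exceeded Gpnmb 40.6-fold in pup 1 and 43.5-fold in pup 3. Of 12 further genes of this state, 7 were detected in both pups, and the median over all 12 was 7.26 TPM. Apoe, a lipid carrier of radial glia and astrocytes as well, had 1285 TPM in pup 1 and 1058 TPM in pup 3, and Fabp5, a fatty acid-binding protein, 945 TPM in pup 1 and 1094 TPM in pup 3. Itgax, which encodes CD11c, had 0.14 TPM in pup 1 and 0.06 TPM in pup 3. Clec7a, Cst7, Ccl3 and Ccl4 were the others under 1 TPM in at least 1 pup.

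Markers of other blood cells were mostly under 1 TPM. Of the 12 microglia markers all 12 were detected, summing to 120 TPM in pup 1 and 105 TPM in pup 3. Of 9 border macrophage markers 8 were, summing to 86.2 TPM in pup 1 and 91.0 TPM in pup 3. Of 4 monocyte markers 1 was, with sums of 2.06 TPM in pup 1 and 3.04 TPM in pup 3, and Ccr2, the chemokine receptor of inflammatory monocytes, had 0.06 TPM in both pups. None of 3 T cell and 3 B cell markers was detected in both pups. Mast cell markers were present in 2 of 3 cases, led by Cma1, a mast cell chymase, at 3.84 TPM in pup 1 and 3.06 TPM in pup 3. Neutrophil markers differed between the pups. The 5 of them summed to 10.1 TPM in pup 1 and 29.1 TPM in pup 3, with S100a8, a calgranulin, at 4.94 TPM in pup 1 and 15.04 TPM in pup 3, and S100a9, its partner, at 3.12 TPM in pup 1 and 9.54 TPM in pup 3.

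**Figure D2:**
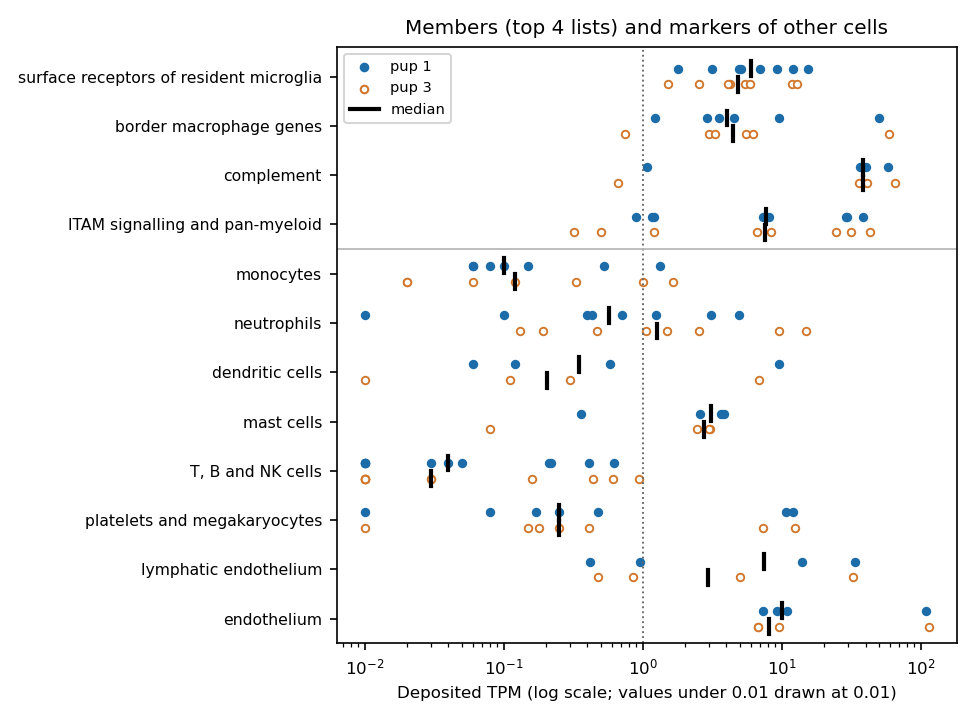
Deposited TPM (log axis) of the genes of 4 member lists and 8 lists of other cell types in pup 1 (filled) and pup 3 (open), with black bars at each pup's list median and a dotted line at 1 TPM. The medians of monocyte, dendritic, platelet and lymphocyte genes lie under 1 TPM in both pups, and that of neutrophil genes is 0.57 TPM in pup 1 and 1.27 TPM in pup 3.

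The pups were then set against each other gene by gene. Ratios were formed as log2 of TPM + 0.1 in pup 1 over pup 3, which understates the change of low genes, and were centred on the median of the 14990 genes with a mean of 1 TPM or more. That centring removed a shift of 0.27 on the log2 scale (1.20-fold). The comparison took in 35 members, and 2 of them, Cx3cr1 and Lpl, passed 1.5-fold, both higher in pup 1. Over all 14990 genes 7.95% passed 1.5-fold higher in pup 1 and 4.28% higher in pup 3, 12.2% in either direction, so the members' count is near or under the background. None of the 35 passed 2-fold. Between the 2 libraries, edgeR's common biological coefficient of variation was 0.170, which puts 1 SD of a log2 ratio at 0.35. Given the shared donor identifier, this value may hold technical spread, and the variation with transcript length described below was not removed from it. At the members' levels, the trend fitted over the expression of all genes ran between 0.145 and 0.242. These are values of the trend, not estimates of each member's own variation.

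Cx3cr1 gave 716 expected counts in pup 1 and 381 in pup 3, and its centred ratio was 0.82 on the log2 scale (1.77-fold). The ratio of its counts was 0.81, with an exact conditional binomial 95% interval of 0.63 to 0.99 that covers counting error only. Lpl gave 1980 counts in pup 1 and 1191 in pup 3, with a centred ratio of 0.62 (1.54-fold) and a count interval of 0.53 to 0.74. The interval of Cx3cr1 lies wholly above the 1.5-fold line, and that of Lpl includes it. Among other microglial receptors the ratio was 0.09 for P2ry12, -0.03 for Gpr34, -0.01 for Csf1r and -0.47 for Tmem119, so the receptors did not differ between the pups as a block. Slc2a5, a fructose transporter of microglia outside the 40, had 2.82 TPM in pup 1 and 1.15 TPM in pup 3, and Mertk, a receptor for dying cells, 1.45 TPM in pup 1 and 0.65 TPM in pup 3. They were the 2 of 16 further microglia genes past 1.5-fold, both higher in pup 1. On counts, 119 in pup 1 and 99 in pup 3, the ratio of Slc2a5 was 0.16 with an interval of -0.23 to 0.56 and was not past 1.5-fold, whereas that of Mertk was 0.88. In the signalling list, Tgfb2 and Csf2ra, a subunit of the GM-CSF receptor with 19.7 TPM in pup 1 and 10.1 TPM in pup 3, were also past 1.5-fold higher in pup 1, the 2 of 10 compared.

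Toward pup 3, the lowest ratios were -0.56 for Lyve1, -0.52 for Pf4 and -0.47 for Tmem119, Ms4a7 and Aif1, none past 1.5-fold. The counts of Aif1, 102 in pup 1 and 154 in pup 3, gave -0.70, a larger difference than its TPM. The border macrophage list had a median of -0.47 over 5 members, although F13a1 stood at 0.34 and Mrc1 at -0.04. Relative to genes of like length, as described below, Pf4 was at -0.17, Ms4a7 and Mrc1 at -0.25, Lyve1 at -0.58 and F13a1 at 0.21. Outside the 40, the border genes Cbr2, with 2.70 TPM in pup 1 and 4.12 TPM in pup 3, and Ms4a6b, with 1.68 TPM in pup 1 and 2.65 TPM in pup 3, passed 1.5-fold higher in pup 3, the 2 of 8 that did. On counts Cbr2 was at -0.54 and did not pass, and Ms4a6b was at -0.66. All 3 neutrophil genes that could be compared were past 1.5-fold higher in pup 3, S100a8 at -1.85, S100a9 at -1.85 and Ngp at -1.24. Single genes of other lists passed in the same direction: Ctsh, a cathepsin with 31.0 TPM in pup 1 and 39.6 TPM in pup 3, Cfb, complement factor B, with 0.91 TPM in pup 1 and 1.46 TPM in pup 3, and Ccl3, a chemokine, with 0.90 TPM in pup 1 and 1.55 TPM in pup 3. By counts Ctsh was at -0.59, barely past the line. Cfb, from 36 counts in pup 1 and 52 in pup 3, was at -0.63, and its interval of -1.29 to 0.0086 includes no difference. The part of neutrophils or of other blood cells in the members' ratios was not tested.

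**Figure D3:**
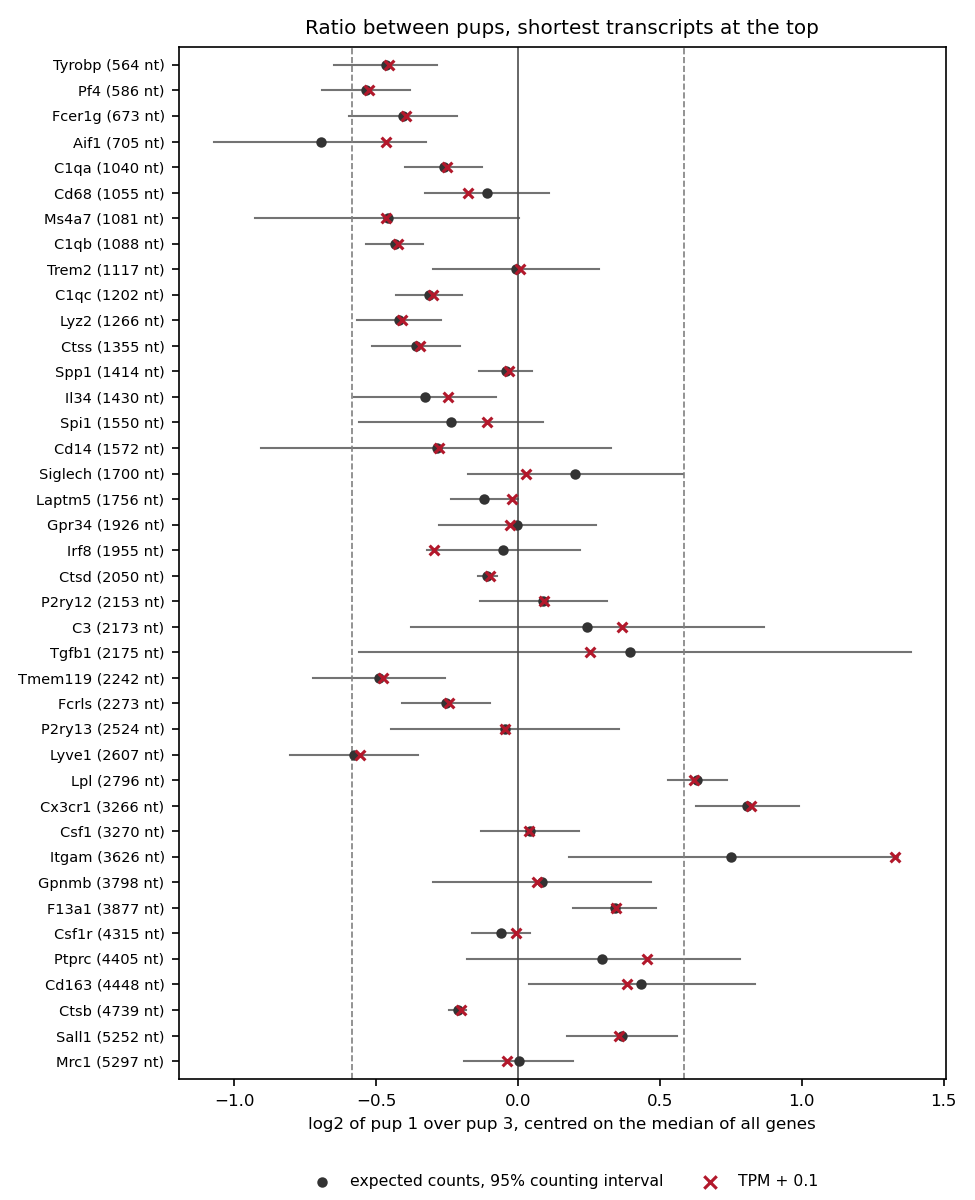
Log2 ratio of pup 1 over pup 3 for the 40 members, ordered by transcript length with the shortest at the top, from expected counts (dots with 95% counting intervals) and from TPM + 0.1 (crosses), each centred on the median of all genes, with dashed lines at 1.5-fold. Cx3cr1 and Lpl lie beyond the line toward pup 1 on both measures, as does Itgam, which is under the level needed for the comparison. Aif1 lies beyond it toward pup 3 on counts only, and short transcripts such as Tyrobp, Pf4 and Fcer1g lie on the pup 3 side.

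The members' ratios varied with the length of their transcripts. The median over the 35 was -0.18, with quartiles of -0.37 and 0.00, and 26 lay below 0, where all genes had quartiles of -0.21 and 0.25 around a median set to 0. Among 14 members with a mean transcript under 1500 nt, such as Tyrobp, Pf4, Fcer1g and the C1q genes, the median was -0.37 and 1 was above 0. All 4085 genes of that length had a median of -0.24. For 13 members of 1500 to 3000 nt the median was -0.10, against -0.03 for all 5750 such genes. For 8 members of 3000 nt or more it was 0.05, against 0.17 for all 5155. Spearman's correlation of ratio and length was 0.61 over the 35 members and 0.45 over all 14990 genes, a description across genes that share the same 2 libraries. Relative to genes of like length (0.8 to 1.25 times their own, chosen after seeing the data), the members' median was -0.07. Without length matching 9 of the 35 were above 0, and with it 11 were, so most members stayed below 0. Cx3cr1 at 0.74 and Lpl at 0.59 were again past 1.5-fold, and Lyve1 was lowest at -0.58.

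**Figure D4:**
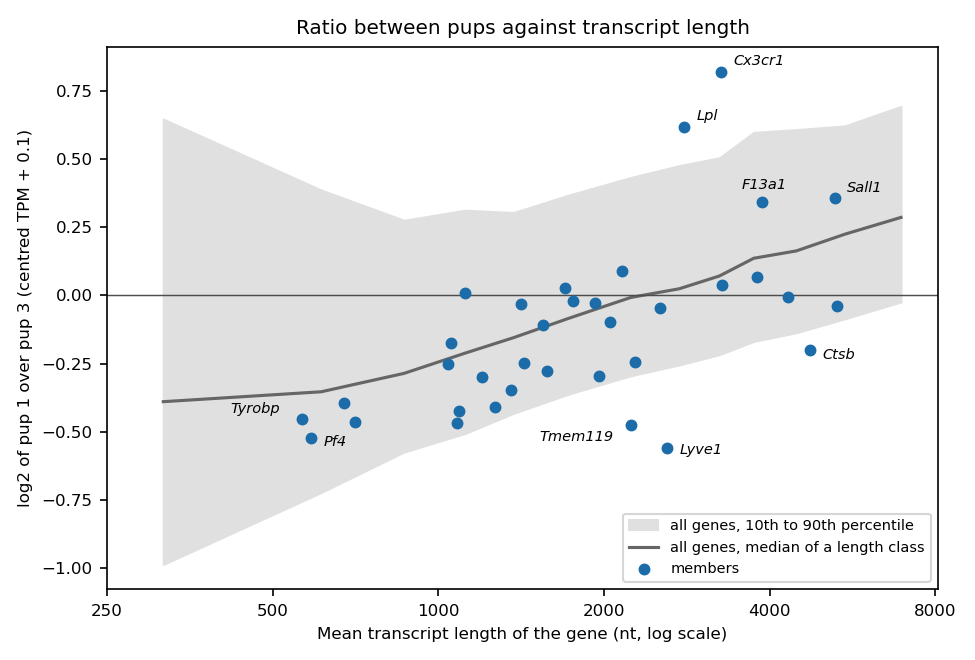
Centred log2 ratio of pup 1 over pup 3 against mean transcript length (log axis) for the 35 members compared (blue dots), with the median (line) and 10th to 90th percentile (grey) of all genes in classes of length. Members follow the rise of the line from about -0.4 for the shortest genes to above 0 for the longest, with Cx3cr1 and Lpl above the grey band and Tmem119, Lyve1 and Ctsb below it.

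Transcript shares were read from the deposited tables, as a percent of the gene's TPM. Of 24 detected members with at least 2 transcripts, 22 were led by 1 and the same transcript in pup 1 and pup 3, and in 8 that transcript held 90% or more in each. Csf1r divided its TPM between a pair of protein-coding transcripts, and Csf1r-201 held 54.7% in pup 1 and 38.2% in pup 3, with the rest on Csf1r-202. In Aif1, Aif1-203 held 52.1% in pup 1 and 31.6% in pup 3, while Aif1-201 was at 0% in pup 1 and 42.7% in pup 3. Aif1-205, annotated as a retained intron, held 47.9% in pup 1 and 24.3% in pup 3. By the deposited posterior mean shares Aif1-205 led in pup 1 with 43.0%, and Aif1-203 in pup 3 with 30.75%. Csf1r and Aif1 were the 2 genes whose leading transcript differed. With 102 and 154 counts of Aif1 in pup 1 and pup 3 over 7 transcripts, its division rests on few reads. Trem2-201, the longer annotated coding form, held 71.2% in pup 1 and 78.6% in pup 3, and Trem2-202 held 27.9% in pup 1 and 20.4% in pup 3. For Lpl the larger share went to Lpl-203, annotated for nonsense-mediated decay, with 58.5% in pup 1 and 60.0% in pup 3. The coding form Lpl-201 held 41.2% in pup 1 and 39.5% in pup 3, although by expected counts it had more, 1205 in pup 1 and 706 in pup 3, against 768 in pup 1 and 481 in pup 3 for Lpl-203, which is shorter. Both forms were higher in pup 1, and their shares were nearly alike in the pups. Cx3cr1-202 held 84.9% in pup 1 and 76.8% in pup 3, and P2ry12-202 76.7% in pup 1 and 79.1% in pup 3.

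**Figure D5:**
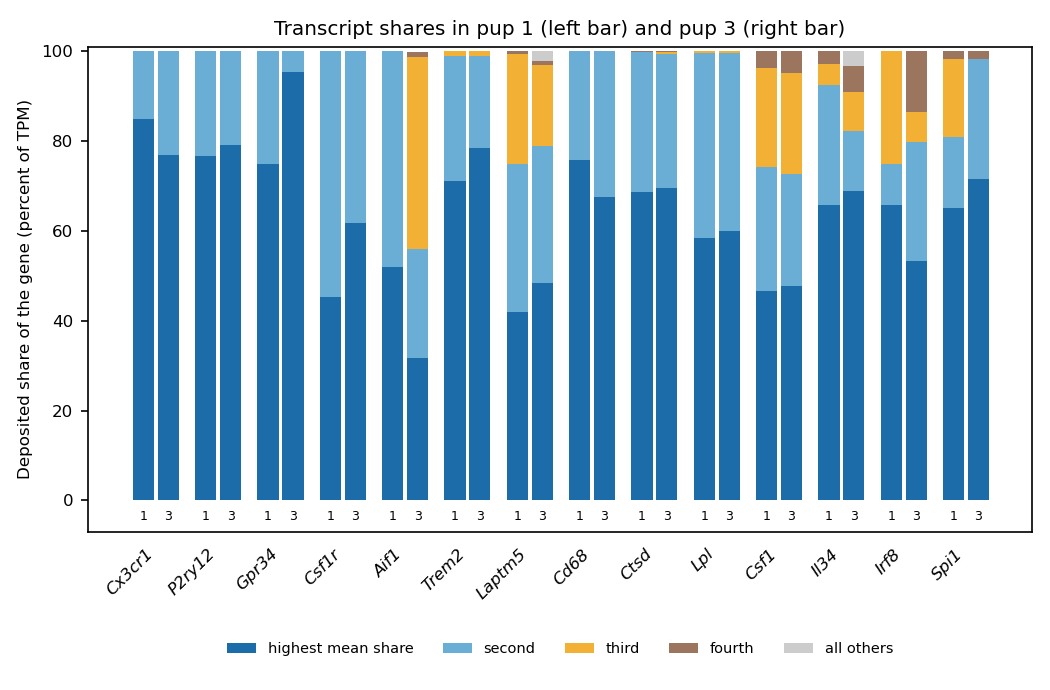
Transcript shares (deposited percent of the gene's TPM) of 14 members, with pup 1 as the left bar and pup 3 as the right bar of each pair, stacked in order of mean share. Csf1r and Aif1 differ in their leading transcript between pups, whereas Lpl and Ctsd keep nearly the same division.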

How the data were processed

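Total RNA from 2 forebrains was measured, with 1 library each. The labels name mirVana extraction and spike-in RNAs, and link the manual of a low-input SMARTer kit. Reads were quantified on mm10 with GENCODE M4, per the deposited notes. For the aligner, quantifier and strand setting, the sources used here name none. The deposited tables hold expected counts and TPM, per the file headers, and the deposited transcript tables give each transcript's share of its gene's TPM as a percent. Deposited interval bounds and FPKM were not used here.

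Symbols came from GENCODE M21, matched for 42462 of 43346 genes. Detection meant TPM of 1 or more in both pups. The pseudocount was 0.1, and the ratios took genes averaging at least 1 TPM. Pairs of genes numbered 26, of which 21 exceeded 3 SD. Expected counts were rounded to whole numbers for edgeR 4.0.16 (intercept only) and for the size factors of DESeq2 1.42.0, in R 4.3.3. The rest ran in Python 3.11.15 with pandas 2.3.3, scipy 1.17.1, numpy 2.4.6 and matplotlib 3.10.9. The fold rule was tried on simulated counts without spread between animals, and the common dispersion on counts simulated with such spread. The other steps were not tried on simulated data. Alternatives were the deposited posterior mean TPM, rescaled TPM, other pseudocounts, filters, thresholds and scalings, and each pup alone.

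The members, lists and pairs were chosen with earlier results of these data known. The genes named are the 40 members, the 2 highest and the lowest gene of each further list with any past 1.5-fold, genes of the pairs and genes that overlap a member. Markers of other cells are named beside the results they bear on, and some genes that this rule picks are left out. Counting intervals cover counting error only, since reads are not independent molecules. Depth was 40066386 and 40431595 expected counts in pup 1 and pup 3.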

Additional observations from a re-analysis of the deposited data

How the results depend on the processing

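No paired analysis was possible because the series holds 1 group with 1 library per pup. The 5 members under 1 TPM in at least 1 pup rest on 17 to 132 expected counts per pup, which limits their precision. The median member level of 7.02 TPM was 8.40 TPM when TPM was rescaled over nuclear protein-coding genes, and 6.10 to 7.55 TPM with either pup alone. The count of 35 detected members lay between 32 and 40 under other thresholds and was 35 to 38 with either pup alone. By posterior mean TPM of 1 or more it was 37, with C3 and Ptprc added. The count of 2 members past 1.5-fold became 4 without centring (Cx3cr1, Lpl, F13a1 and Sall1, all higher in pup 1), where all genes had a median of 0.27. It was 4 with TMM-scaled counts and 4 with DESeq2 size factors (Cx3cr1 and Lpl higher in pup 1, Aif1 and Lyve1 higher in pup 3), 0 at 2-fold, and 3 without a filter on TPM, with Itgam added. The members' median ratio of -0.18 was 0.0921 without centring, -0.0837 without the filter and -0.0666 relative to genes of like length. That last alternative and leaving out Ctsb and Ctsd were added after seeing the data. Among pair ratios (mean log2), Itgam over Ptprc turned to 0.0074 with a pseudocount of 1. Library-scaled counts, which are not divided by length, turned Il34 over Csf1 to -1.04, P2ry12 over Mrc1 to -0.42, Pf4 over F13a1 to -0.15 and Ctsd over Ctsb to -0.41. On them Tyrobp over Fcer1g, Siglech over Cd163, Pf4 over Mrc1 and Pf4 over F13a1 no longer exceeded 3 SD, and Spi1 over Irf8 and Il34 over Csf1 newly did. In 95 other cases a pair kept its direction and its side of 3 SD, and 19 to 21 pairs exceeded it in all.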

Other observations

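Endothelial genes, read on the same TPM scale, had a median of 9.07 TPM over 4 genes. This was above the medians of the microglial receptors (5.83 TPM) and border macrophage genes (4.14 TPM). It was under those of the complement, lysosome and phagocytic state lists. The tight junction gene Cldn5 had 109 TPM in pup 1 and 114 TPM in pup 3. Neurod6, a transcription factor of cortical excitatory neurons, was past 1.5-fold between the pups, at 206 TPM in pup 1 and 329 TPM in pup 3. Among dendritic cell genes, Zbtb46, which endothelium also expresses, had 9.54 TPM in pup 1 and 6.80 TPM in pup 3, and Flt3, a receptor of dendritic cell progenitors, 0.58 TPM in pup 1 and 0.30 TPM in pup 3.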
